A study of Rattus norvegicus with 22 samples.

Results

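The 6 prefrontal cortex RNA libraries of WIN-exposed rats were compared with the 6 prefrontal cortex RNA libraries of rats that had not received WIN, with cocaine as a covariate. These 12 libraries are part of a series of 22, and 15326 of the 29663 genes in the deposited table had an FPKM (reads per gene, scaled to gene length and library total) of 1 or more in at least 3 of them and were tested. The WIN-exposed side held 3 libraries labelled WIN and 3 labelled WIN with cocaine. The other side held 3 labelled control and 3 labelled cocaine. All came from male Sprague-Dawley rats, and the series' title places the cannabinoid exposure in adolescence. The labels used here give no dose, route, age at sampling or time since treatment. Nothing in the labels says that replicates are separate animals, so p-values measure the spread between these libraries, which may be technical.

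WIN is a synthetic agonist of the cannabinoid receptors. In the cortex the main one is a G protein-coupled receptor on axon terminals, where endocannabinoids released by the postsynaptic cell act on it to lower transmitter release. The prefrontal cortex matures during adolescence, when synapses are pruned and inhibitory circuits are refined, and cannabinoid agonists given at that age are widely used in rats to model adolescent cannabis use. A WIN effect shared by rats with and without cocaine would appear as a gene that moves the same way in both pairs of groups, WIN against control and WIN with cocaine against cocaine.

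The deposited table lists genes by ID and pairs none with a name, and the gene reference supplied (assembly GRCr8) matched 0 of them. Genes are therefore described by ID, level, length and direction. Neuronal, glial or vascular genes and the genes of the cannabinoid system were not analysed here, and the labelled tissue was not checked against its markers. In bulk tissue, fewer cells of a type and less RNA per cell cannot be told apart. Recovered depth ran from 20852442 to 27677077 reads per library, and 488 reads per library stood behind the median gene tested. WIN replicate 3 stood apart from the other WIN libraries: limma's library weights gave it 0.296, the lowest of the 12, beside 1.37 and 1.83 for WIN replicates 1 and 2. By the chi-square between the reads of 2 libraries, per degree of freedom, it lay closest to cocaine replicate 3, at 9.25. It was 12.95 and 22.24 from cocaine replicates 2 and 1, and 31.25 and 32.52 from WIN replicates 1 and 2. From control replicates 1 to 3 it was 17.59, 27.96 and 18.1, and from WIN with cocaine replicates 1 to 3 it was 17.36, 18.56 and 13.62. Distances of this size also occurred within the cocaine group: 28.94 between replicates 1 and 2, 23.81 between 1 and 3, and 16.36 between 2 and 3. Its first principal component was 10.3, beside -18.8 and -11.9 in WIN replicates 1 and 2 and 27.3, 22.9 and 9.96 in cocaine replicates 1 to 3. The reason was not tested.

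No gene passed the test of the WIN difference averaged over rats with and without cocaine. Limma on log2(FPKM + 1) called 0 of 15326 genes at an adjusted p under 0.05 (background 0%), and limma voom on the recovered reads called 0. The lowest adjusted p of the limma fit was 0.999. An unadjusted p under 0.05 was reached by 319 genes, or 2.08%, where an even spread of p-values gives 766. That count rested on WIN replicate 3: it was 1774, or 11.6%, without that library and 1219 with library weights, both above 766. Of the 319, 180 (1.17%) were higher and 139 (0.907%) lower in the WIN-exposed libraries. After median ratio rescaling 156 were higher and 174 lower. Limma voom also had 319 genes at that p, 161 higher and 158 lower. An unadjusted p under 0.001 was reached by 5 genes (0.0326%), and by 25 (0.163%) without WIN replicate 3, where 15.3 would come from an even spread.

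The estimated differences were small for most genes. The median size of the WIN difference was 0.05 on the log2 scale, 90% of genes lay within 0.16 and 99% within 0.44. The 95% interval of the median gene reached 0.18 to either side of its estimate. For 14388 genes, or 93.9%, the whole interval lay inside a 1.5-fold difference in either direction. It lay inside 1.2-fold for 8846 genes, or 57.7%. On this scale low genes are pulled toward 0, so their intervals say less about the FPKM itself. Estimates reached 1.5-fold in 72 genes, 27 higher and 45 lower, of which 28 had an unadjusted p under 0.05. The median size without WIN replicate 3 was 0.08, the interval lay inside 1.5-fold for 92.5% and inside 1.2-fold for 50.0% of genes, and 94 genes reached 1.5-fold, 39 higher and 55 lower.

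The same fit gives a cocaine term over the same 12 libraries, with the same number on each side. That term had 3637 genes at an unadjusted p under 0.05 (23.7%), against 319 for WIN, and it too called 0 at an adjusted p of 0.05 in limma. The cocaine term without WIN replicate 3 had 5741 genes (37.5%) at that unadjusted p, and 3567 genes (23.3%) were called, where WIN still had 0. Averaged over genes, the WIN term held 6.46% of the variance between libraries, the cocaine term 19.8% and the interaction of both treatments 11.1%, where each would hold 9.09% if all 11 degrees of freedom carried the same variance. WIN was the largest of the 3 terms in 17.1% of genes, the interaction in 28.2% and cocaine in 54.7%. With each term taken given the other two and WIN replicate 3 left out, the WIN term held 10.4%, cocaine 27.0% and the interaction 8.63%, beside an equal share of 10%. WIN was then the largest in 19.8% of genes, the interaction in 20.7% and cocaine in 59.5%. These shares describe the libraries and were not tested against each other.

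**Figure D1:**
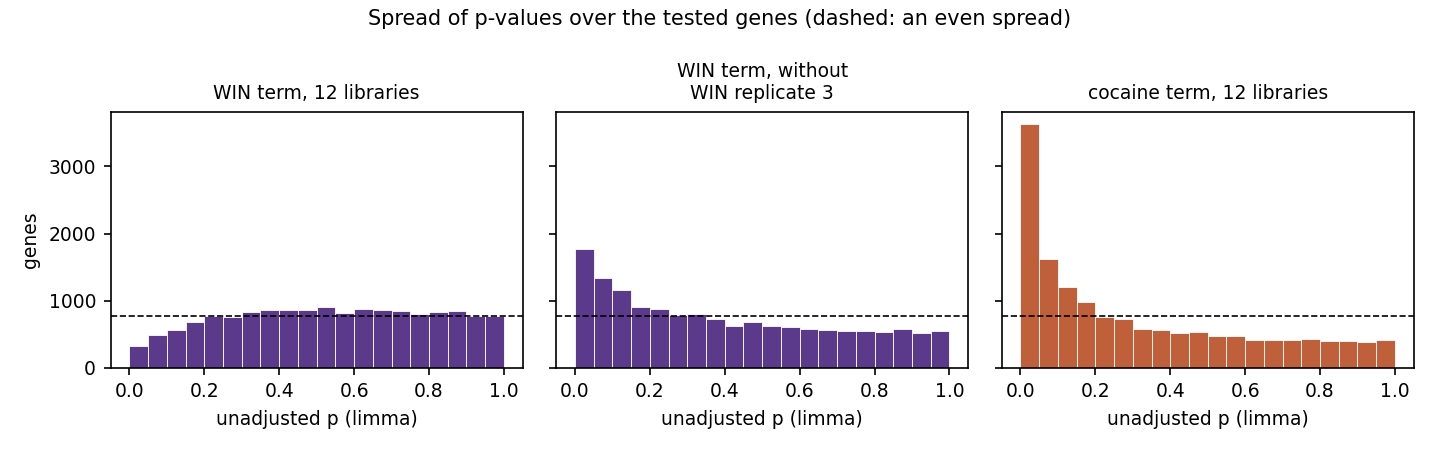
Number of tested genes (y axis) by unadjusted limma p in steps of 0.05 (x axis) for the WIN term, the WIN term without WIN replicate 3, and the cocaine term; the dashed line is an even spread of 766 genes per step. The lowest step holds 319 genes for WIN with all 12 libraries, 1774 without WIN replicate 3 and 3637 for cocaine.

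Most genes did not move the same way in both pairs of groups. The WIN change without cocaine and the WIN change with cocaine, which share no library, had the same sign in 5521 of 15326 genes, or 36%: 3059 were higher and 2462 lower after WIN in both. The other 9805 genes had opposite signs, 4511 higher without and lower with cocaine and 5294 the reverse. Among the 39 genes with an unadjusted limma p under 0.05 in each of the 2 changes, 15 had the same sign and 24 opposite signs. Without WIN replicate 3 the same sign was found in 8405 genes, or 54.8%, and in 50 of 67 genes at that p in both changes. In the other 11 fits that each left out 1 library the share with the same sign ran from 30% to 43.7%.

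**Figure D2:**
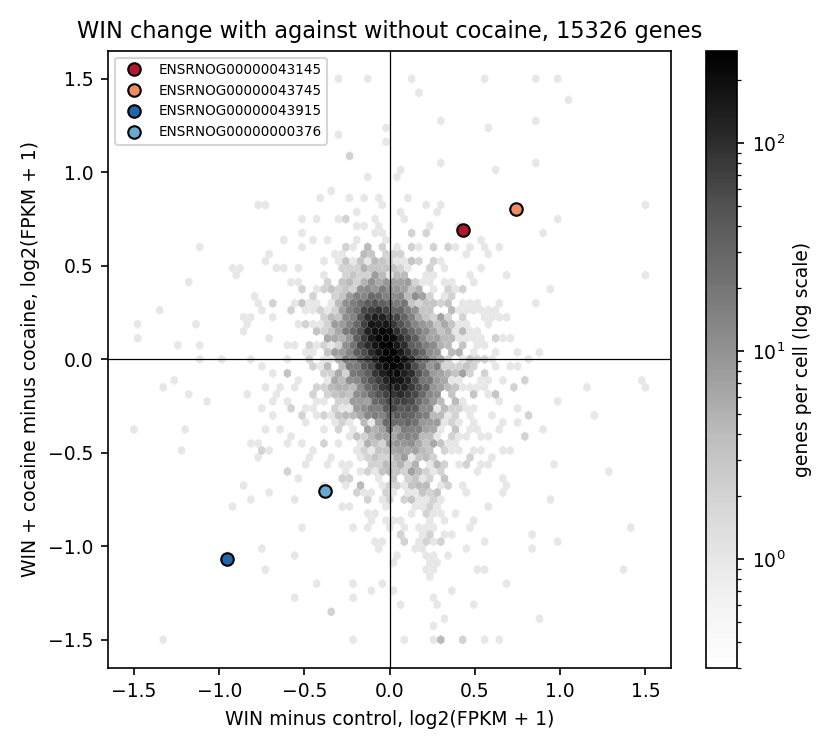
WIN change with cocaine (y axis) against WIN change without cocaine (x axis), both as log2(FPKM + 1) differences, for 15326 genes as a density, with the 4 genes named in the text as coloured points; 24 genes beyond 1.5 are drawn at the edge. The cloud leans from upper left to lower right, with 9805 genes in the 2 quadrants of opposite sign, and the 4 points lie in the quadrants of the same sign, as their choice requires.

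Each pair of groups was also read on its own. WIN with cocaine differed from cocaine in 1623 genes at an unadjusted limma p under 0.05 (10.6%) and WIN from control in 238 (1.55%), with 0 genes called at an adjusted p of 0.05 in either by limma or by limma voom. The first count was 1010 without cocaine replicate 1 and 1048 without WIN with cocaine replicate 2, but 2350 without WIN replicate 3 and 2134 without cocaine replicate 3. The second was 148 when control replicate 2 was left out, and 478 and 409 when WIN replicate 1 or WIN replicate 3 was. The difference between the WIN changes had 1382 genes at an unadjusted limma p under 0.05 (9.02%), and 0 were called by limma or limma voom. Of the 1382, 1343 had opposite signs in the 2 changes, beside 9805 of all 15326 genes tested. A choice by the difference favours opposite signs, so nothing is drawn from that count. Leaving out control replicate 2 gave 596, WIN replicate 3 789, WIN with cocaine replicate 3 857 and cocaine replicate 1 899. With all 12 libraries no gene thus passed a test of the average WIN change or of a difference between the 2 changes.

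Genes chosen in 1 pair of groups were then followed in the other. The p used for the choice took its spread from all 12 libraries, so the other pair also entered the choice, through its spread. The 200 genes with the smallest p that were higher in WIN than in control had a median log2 difference of -0.05 in WIN with cocaine against cocaine, and 77 of them were higher there, beside 54.5% of all genes. Of the 200 lower ones, 80 were lower in the other pair, beside 45.5% of all genes, with a median of 0.04. In the reverse reading, 56 of the 200 genes higher in WIN with cocaine than in cocaine were also higher in WIN than in control, beside 49.4% of all genes. Of the 200 lower ones 51 were also lower, beside 50.6%. Without WIN replicate 3, with the genes chosen anew, these 4 counts were 122, 133, 145 and 150 of 200, beside 54.5%, 45.5%, 54.2% and 45.8% of all genes.

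Those counts can be read library by library. For the 400 genes chosen on WIN with cocaine against cocaine, the mean signed log2 level, centred over the 12 libraries, was 0.07, 0.17 and 0.09 in control replicates 1 to 3. It was 0.15, 0.07 and -0.08 in WIN replicates 1 to 3. WIN replicates 1 and 2 lay level with the controls, and WIN replicate 3 lay below all of them. The libraries compared to choose these genes stood at -0.41, -0.31 and -0.24 in cocaine and at 0.15, 0.16 and 0.17 in WIN with cocaine.

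The 400 genes chosen on WIN against control gave a different picture by library. Their level was 0.08, 0.07 and 0.03 in cocaine replicates 1 to 3 and 0.05, -0.01 and -0.03 in WIN with cocaine replicates 1 to 3, so these groups overlapped. It stood at -0.20, -0.27 and -0.21 in control and at 0.15, 0.17 and 0.17 in WIN, the libraries compared for the choice.

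**Figure D3:**
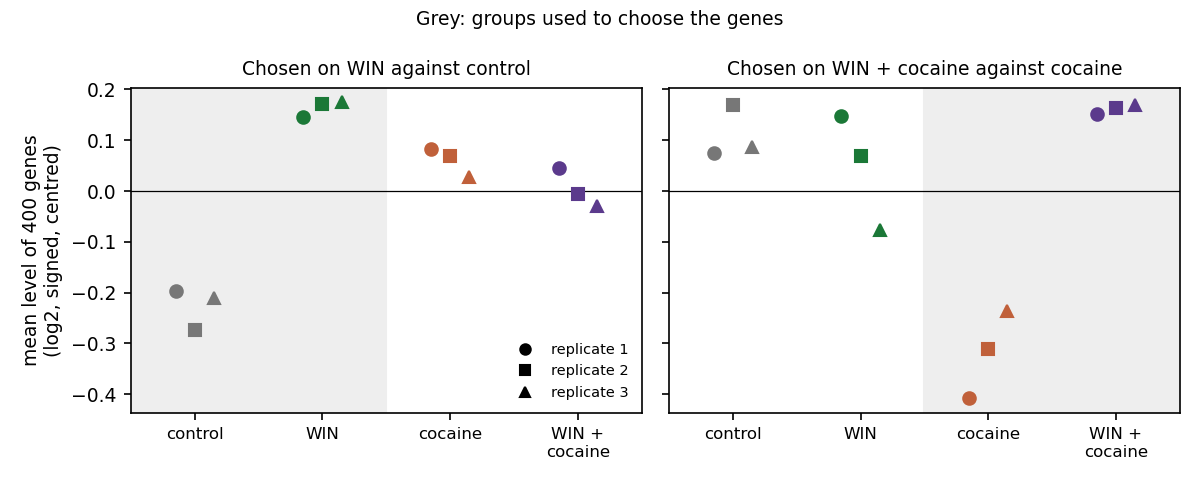
Mean signed log2 level of 400 genes (y axis, 200 higher and 200 lower, centred over the 12 libraries) in each library by group (x axis). Symbols mark replicate numbers and grey marks the groups compared to choose the genes, with the spread taken from all 12 libraries. In the unshaded groups of the right panel WIN replicate 3 lies lowest at -0.08, and in those of the left panel cocaine and WIN with cocaine overlap.

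Leaving out WIN replicate 3 changed the number of genes at an unadjusted p under 0.05 in the WIN main effect more than leaving out any other library. Without it, 1774 genes had an unadjusted limma p under 0.05 (11.6%), 1096 higher and 678 lower, and still 0 passed an adjusted p of 0.05, the smallest being 0.414. The smallest adjusted p was lower when WIN with cocaine replicate 1 (0.133) or cocaine replicate 1 (0.373) was left out. The balance of directions depended on the scaling: median ratio rescaling of those 11 libraries gave 729 higher and 891 lower, while quantile normalization gave 924 and 773 and limma voom 1076 and 722. Of the 319 genes at that p with all libraries, 266 were among the 1774, all 266 in the same direction. The fits share 11 libraries, so that agreement in direction was close to fixed in advance. Without control replicate 2 the count was 489, and in the 10 other fits that each left out 1 library it lay between 241 and 393.

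**Figure D4:**
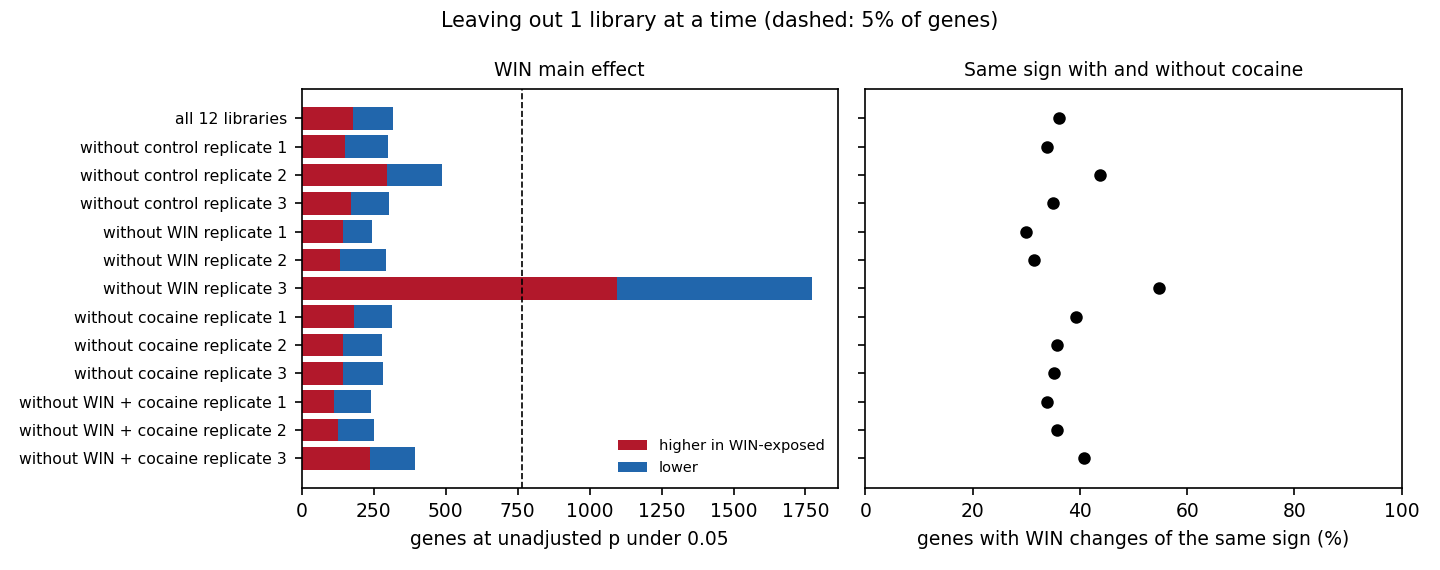
Left, genes at an unadjusted limma p under 0.05 for the WIN main effect (x axis), higher or lower in the WIN-exposed libraries, with all 12 libraries and with each left out in turn (y axis); the dashed line marks 766 genes, 5% of those tested. Right, the percent of genes whose WIN changes without and with cocaine have the same sign. WIN replicate 3 is the only library whose omission brings the count above the line, to 1774, and the share above 50%, to 54.8%.

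Genes whose values did not overlap at all were few. In 12 genes (0.0783%) the 6 WIN-exposed values lay wholly beyond the 6 others, 10 of them higher and 2 lower, with log2 differences of 0.10 to 0.56 in size. For 2 of the 12 every FPKM of 1 or more lay on 1 side, so that they were tested only because that side was high. Within the pairs, the 3 WIN values lay beyond the 3 control values in 909 genes (5.93%) and the 3 values of WIN with cocaine beyond the 3 cocaine values in 2762 (18.0%). Both held in the same direction in 30 genes (0.196%), 19 higher and 11 lower, and in opposite directions in 68 (0.444%). With 2 WIN libraries in place of 3, separation is easier to reach, so the next counts cannot be set directly against those above. Without WIN replicate 3, WIN lay beyond control in 3433 genes (22.4%). Both pairs were then separated in the same direction in 406 (2.65%), 284 higher and 122 lower, and in opposite directions in 108 (0.705%). In 39 genes (0.254%) the 5 remaining WIN-exposed values lay beyond the 6 others, 27 higher and 12 lower.

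With all 12 libraries the genes with the smallest p were mostly low and short. Of the 12 Ensembl genes with the smallest p that were higher after WIN in both pairs, 7 had a mean FPKM under 5, and of the 12 lower ones 10 did, beside 33.6% of all genes tested. Their median lengths, recovered from the FPKM values, were 713.5 and 710 bp, beside 1922 bp for all genes tested. Features shorter than 250 bp made up 6 of these 24 genes, 11.9% of the 319 genes at an unadjusted p under 0.05 and 2.71% of all genes tested. For 3 of these 24 genes, 15 of the 319 and 47 of all genes tested, every FPKM of 1 or more lay on 1 side. Without WIN replicate 3, with the 24 chosen anew, 2 of the 12 higher and 4 of the 12 lower genes had a mean FPKM under 5, their median lengths were 1060 and 1022 bp, and features under 250 bp made up 3 of the 24 and 2.87% of the 1774 genes. With the genes split by mean FPKM into 4 bins of equal size, the share at that p was 3.26% in the lowest bin, then 2.56% and 1.31%, and 1.2% in the highest, below 5% at every level. Without WIN replicate 3 the order turned, from 225 genes in the lowest bin to 667 in the highest.

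ENSRNOG00000043145 had the smallest p among the genes higher after WIN in both pairs. Its FPKM was 1.35, 1.65 and 1.23 in control replicates 1 to 3 and 2.77, 2.18 and 1.82 in WIN. It was 0.80, 1.13 and 0.51 in cocaine and 2.05, 1.80 and 1.84 in WIN with cocaine. All 6 WIN-exposed values lay above all 6 others. The control mean was 1.41 ± 0.218 and the WIN mean 2.26 ± 0.482; the cocaine mean was 0.812 ± 0.313 and that of WIN with cocaine 1.90 ± 0.136 (SD, n = 3 each). The WIN difference was 0.56 on the log2(FPKM + 1) scale with an SE of 0.107, an unadjusted p of 0.000185 and an adjusted p of 0.999 in limma. It was 0.43 without and 0.69 with cocaine. The feature is 378 bp long by its recovered length, and 5 to 29 reads per library stand behind these values.

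ENSRNOG00000043745 followed, at a recovered length of only 71 bp and 3 to 17 reads per library. Its FPKM was 1.80, 3.38 and 2.72 in control and 6.11, 5.81 and 3.41 in WIN. In cocaine it was 1.82, 3.01 and 3.77, and in WIN with cocaine 8.83, 5.10 and 3.81. Within each pair the WIN-exposed values lay above the others, by little in WIN replicate 3 and in WIN with cocaine replicate 3, but across pairs the sides overlapped. WIN replicate 3 had 6 reads, beside 5 in control replicates 2 and 3. WIN with cocaine replicate 3 and cocaine replicate 3 had 7 reads each, so only library depth set their FPKM apart. The WIN difference was 0.77 with an SE of 0.195 (unadjusted p 0.0017, adjusted p 0.999 in limma), 0.74 without and 0.81 with cocaine.

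ENSRNOG00000043915 had the smallest p of all genes tested and was lower after WIN. Its FPKM was 3.44, 3.88 and 3.90 in control and 1.46, 2.27 and 0.816 in WIN. It was 2.62, 2.59 and 1.93 in cocaine and 0.745, 1.37 and 0 in WIN with cocaine. The 0 is a count of 0 reads, which allows an FPKM of up to 1.17, the value of 3 reads in that library. Within each pair all WIN-exposed values lay below the others, and the WIN difference was -1.01 with an SE of 0.19 (unadjusted p 0.000152, adjusted p 0.999 in limma). The changes without and with cocaine were -0.95 and -1.07. The feature is 99 bp long and had 0 to 10 reads per library.

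ENSRNOG00000000376 was also lower after WIN, with 1 to 7 reads per library over 225 bp. Its FPKM was 0.945, 1.28 and 1.03 in control and 0.642, 0.833 and 0.359 in WIN. It was 0.96, 1.14 and 1.19 in cocaine and 0.164, 0.201 and 0.516 in WIN with cocaine. All 6 WIN-exposed values lay below all 6 others. WIN replicate 2, control replicate 1 and cocaine replicate 1 had 5 reads each, however, so only library depth set their FPKM apart. An FPKM of 1 or more was reached in 4 of the other libraries and in 0 of the WIN-exposed ones, so the gene was tested only because the side without WIN was high, and no p is given. For the same reason the WIN difference is given without an SE, as a description only: -0.54, with -0.38 without and -0.71 with cocaine.

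**Figure D5:**
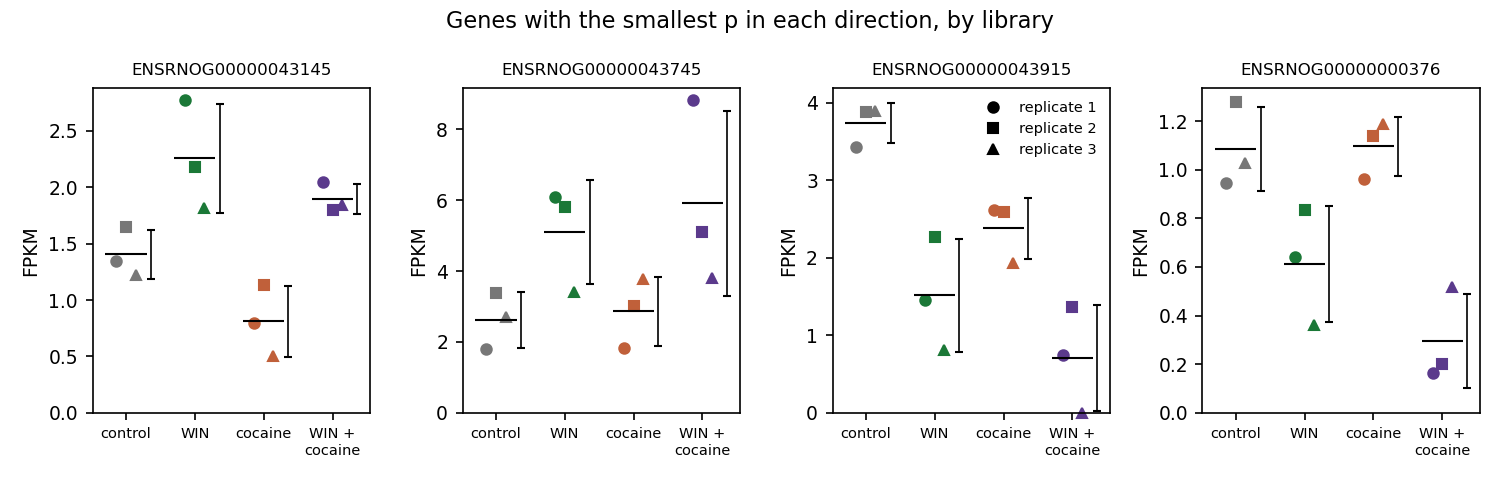
FPKM (y axis, linear, from 0) of the 4 named genes in each library by group (x axis); horizontal lines are means, bars to their right 1 SD of 3 libraries, and symbols mark replicate numbers. In ENSRNOG00000043145 and ENSRNOG00000000376 the WIN-exposed libraries lie wholly on 1 side of the others, and all values rest on 0 to 29 reads. In ENSRNOG00000000376 some libraries on opposite sides had equal reads and differ in FPKM by depth only.

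The reads behind these 4 genes give the scale of counting error. Summed over 6 libraries a side and scaled to depth, the ratio of WIN-exposed to other reads was 1.92 for ENSRNOG00000043145 (exact 95% interval 1.39 to 2.66, from 122 and 59 reads). For ENSRNOG00000043745 it was 2.02 (1.27 to 3.28, from 61 and 28 reads). It was 0.367 for ENSRNOG00000043915 (0.196 to 0.656, from 17 and 43 reads). For ENSRNOG00000000376 it was 0.424, from 16 and 35 reads. No interval is given for that gene, as it was tested only because the side without WIN was high. These intervals cover counting error only and take no account of the choice of these genes by their p among 15326. The pseudocount set the size of the log2 differences: with 0.1 in place of 1 they were 0.91 for ENSRNOG00000043145, 0.96 for ENSRNOG00000043745, -1.83 for ENSRNOG00000043915 and -1.25 for ENSRNOG00000000376.

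The best covered genes among the 24 give a contrast at high read numbers. The best covered of the 12 higher genes, picked for its reads after the values were seen and 1185 bp long, had 1434 to 2133 reads per library. Its FPKM was 51.7, 59.0 and 57.8 in control, 59.3, 64.8 and 59.9 in WIN, 58.7, 51.7 and 51.5 in cocaine, and 66.4, 65.2 and 60.1 in WIN with cocaine. All 6 WIN-exposed values lay above the others, the lowest at 59.3 beside a highest of 59.0, and the WIN difference was 0.18 with an SE of 0.0559 (unadjusted p 0.00628, adjusted p 0.999 in limma). The best covered of the 12 lower genes, picked in the same way and 1305 bp long, had 1113 to 1669 reads. Its FPKM was 43.5, 46.0 and 44.0 in control, 30.8, 34.7 and 34.7 in WIN, 40.7, 54.7 and 48.5 in cocaine, and 40.9, 38.6 and 42.8 in WIN with cocaine. Control and WIN were well separated and the cocaine pair overlapped, with a WIN difference of -0.31 and an SE of 0.0714 (unadjusted p 0.000797, adjusted p 0.999 in limma).

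Genes without an Ensembl ID, listed under another series of IDs, numbered 1278 of those tested. They were lower in level, with a median FPKM of 1.98 beside 11 for genes with an Ensembl ID. Their median WIN difference was 0.03, beside 0.01 for genes with an Ensembl ID, and of the 26 at an unadjusted limma p under 0.05 (2.03%, beside 2.09% of Ensembl genes) 23 were higher and 3 lower after WIN. Median ratio rescaling gave 23 higher and 4 lower, quantile normalization 26 and 3, and limma voom 33 and 4. Leaving out WIN with cocaine replicate 1 gave 12 and 5, and leaving out WIN replicate 3 gave 92 and 25. The share of reads on such genes was 2.38% ± 0.0964 in the WIN-exposed and 2.30% ± 0.0976 in the other libraries (SD, n = 6 a side), a difference of 0.0792 percentage points (exact permutation test, two-sided p 0.165, adjusted over 8 measures 0.66).

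Those 8 measures of each library were compared by permuting the WIN labels within the cocaine and within the other libraries, in 400 arrangements that can give a p as small as 0.005. None separated the sides, with adjusted p from 0.66 to 0.83. Depth was 25700000 ± 2030000 reads in the WIN-exposed and 23830000 ± 1970000 reads in the other libraries (SD, n = 6 a side; exact two-sided permutation p 0.165). The read-weighted median gene length was 2412 ± 52.6 bp and 2423 ± 46.6 bp (p 0.76, exact permutation, n = 6 a side). The first principal component, 28.5% of the variance, differed by 6.2 between WIN and control and by -20.3 between WIN with cocaine and cocaine, for a mean of -7.07 (p 0.315, exact permutation). The other measures were how many genes reached an FPKM of 1, the share of reads on the 10 most abundant genes, and principal components 2 and 3.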

How the data were processed

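The members, lists and tests were chosen with earlier results of these data known. The authors deposited FPKM values for 12 prefrontal cortex RNA libraries, made with a stranded kit per the labels' protocols. The submitters' processing notes name HISAT2, HTSeq and DESeq, without versions. Neither build, gene models nor strandedness of counting is given in the sources used here, and reads on overlapping or near-identical genes may have been assigned to either. Whole reads and gene lengths were recovered from the FPKM steps for all 24197 genes with a value (within 0.001 of a whole number). Of 11615 genes with over 200 reads, 99.98% had a length within 0.03 bp of a whole number.

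Limma 3.58.1 in R 4.3.3 was fitted to log2(FPKM + 1) with WIN and cocaine as additive terms and a prior variance that follows the level; p-values were adjusted by Benjamini-Hochberg over all 15326 genes. The WIN changes and their difference came from 4 group means. The procedure was run on simulated data with genes drawn independently of each other and no library set apart. That run cannot speak to a library such as WIN replicate 3. Groups and replicate numbers came from the titles. Every pair of libraries differed by more than sampling noise, with a chi-square of at least 7.59 per degree of freedom.

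The rule for named genes took those with the smallest p in each direction and the same sign in both pairs of groups. As no ID had a symbol, 2 Ensembl IDs a direction are named, and the genes and gene lists fixed by symbol were not analysed here. The 6 nucleus accumbens and 4 ATAC libraries were not used here.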

Additional observations from a re-analysis of the deposited data

Results flagged for a closer look

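Values were screened for 1 library far from the other 5 on its side, over 24 sets of 6 libraries (the 4 named genes and 8 library measures on each side), where chance gives about 1 in 20. Cocaine replicate 1 stood out among the libraries without WIN with 14932 genes that reached an FPKM of 1, and the other 5 held 14625 to 14728. WIN with cocaine replicate 1 stood out among the WIN-exposed libraries on the third principal component, at 22.0, with the next highest at 3.25. Their part in the WIN comparison was not tested beyond leaving each out, which gave 313 genes without cocaine replicate 1 and 241 without WIN with cocaine replicate 1 at an unadjusted limma p under 0.05, beside 319 with all libraries.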

How the results depend on the processing

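The fits that combine the loss of WIN replicate 3 with another choice were added after the data were examined. At an adjusted p of 0.05 the WIN main effect called 0 genes in all alternatives run, also at 0.10, with the smallest adjusted p from 0.133 (without WIN with cocaine replicate 1) to 1. The 4 named genes kept their direction in all 26 or 27 alternatives each, which the choice by p favours, as does the filter for ENSRNOG00000000376. Leaving out replicates gave 0 to 1 called genes for the WIN change without cocaine (1 without control replicate 2). For the WIN change with cocaine the range was 0 to 1 (1 without control replicate 3 and 1 without WIN replicate 3). Without WIN replicate 3 it was also 1 after median ratio rescaling or quantile normalization, but 0 with limma voom (smallest adjusted p 0.16). For the difference between the WIN changes the range was 0 to 1 (1 without control replicate 1 and 1 without control replicate 2). Counts at an unadjusted limma p under 0.05 ran over the left-out replicates from 241 to 1774 for the main effect, 148 to 478 without cocaine, 1010 to 2350 with cocaine and 596 to 2062 for the difference; genes of the same sign ran from 4591 to 8405. Without a filter, over 24197 genes, the main effect had 676, the WIN change without cocaine 633, and 9097 genes had the same sign. Library weights gave 1219 for the main effect and 889 without cocaine; these weights count WIN replicate 3 least. Without WIN replicate 3, the main effect had 1625 genes with group means, 1620 with median ratio rescaling, 1697 with quantile normalization and 1798 with limma voom. In the last 3 of these the WIN change without cocaine had 404, 406 and 376, and the difference 803, 856 and 776. The same sign was found in 8283 genes with median ratio rescaling and 8452 with limma voom. The cause of these shifts was not tested. A replicate block in the fit left 320 genes at an unadjusted p under 0.05 in the main effect, and 0 were called there or in the other 3 comparisons. Same-numbered libraries deviated together little, with correlations from -0.281 to 0.196, and 4 of 12 were closest to their own number. Gene lists were not run, since no ID had a symbol. Depth limits the named genes, which had 0 to 29 reads per library.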
